A study of Mus musculus with 33 samples.

Results

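RNA carrying N6-methyladenosine (m6A) was pulled down with an antibody from wild-type mouse hippocampal neural stem cells and compared, gene by gene, with the input RNA. The comparison holds 6 of the 33 libraries of the series: 3 labelled m6A and 3 labelled Input, numbered 1 to 3 and paired by number. All 26621 gene symbols of the count table were taken, and 14167 passed a filter on low counts. The cells came from hippocampus at postnatal day 0.5, were untreated, and carry the genotype label Nestin-WT. Their titles give the genotype as Ythdf2-WT, and libraries titled Ythdf2-cKO were not used here. They were cultured in medium with the growth factors bFGF and EGF at 20 ng/mL each. The labels do not say whether the 3 pairs came from separate animals or cultures, so the spread between these libraries may be technical. The p-values and standard errors (SE) draw on a spread shared in part across genes, not on a gene's own 3 pairs alone. Other wild-type libraries served as independent readouts: a YTHDF2 pull-down with IgG and input controls (3 each), and RNA-seq of cells under actinomycin D, a transcription inhibitor, at 5 µM for 0, 2 or 4 h (3 each).

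m6A is a methyl mark that a nuclear enzyme complex built around METTL3 and METTL14 writes on messenger RNA, mostly in long internal exons, near stop codons and in 3′ untranslated regions. The demethylases FTO and ALKBH5 can remove it. Reader proteins bind the mark, and the best known of them, YTHDF2, brings its targets to the deadenylation and decay machinery. In neural progenitors the mark is known for its part in the turnover of transcripts that encode fate and cell cycle regulators.

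Total counts per library ranged from 12892222 to 28334300, lowest in input 1. Neural stem cell markers were present in every input: the radial glial lipid-binding gene Fabp7 at 3786 to 4051 CPM (counts scaled to the library total), the glutamate transporter Slc1a3 at 3085 to 4948, Sox9 at 1057 to 1125, Nes at 30.7 to 42.3 and Sox2 at 36.8 to 44.7. Markers of other cells in the input summed to 3208 to 3464 CPM for 23 young neuron genes and 1148 to 1565 for 17 oligodendrocyte lineage genes. They summed to 11.4 to 14.3 CPM for 13 fibroblast and meningeal genes and 9.52 to 12.4 for 12 endothelial genes. Twist1, Foxd1, Cdh5, Cldn5 and Dlx5 were at 0 in all inputs. In such bulk RNA, fewer cells of a type and less RNA per cell cannot be told apart.

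The comparison asked which transcripts were over- or under-represented in the m6A pull-down relative to input. This experiment had no IgG control, so RNA held without the mark was not measured in it. Of the 14167 genes, 2441 were higher in the pull-down (17.2%) and 2932 lower (20.7%), and 8794 were not called (edgeR quasi-likelihood, replicate number as a block, Benjamini-Hochberg adjusted p under 0.05). The differences were unequal in size. The median called gene was 1.25-fold higher on the one side and 1.43-fold lower on the other. More than 2-fold, 31 genes were higher and 481 lower, and among genes with a mean of at least 4 log2 CPM these counts were 1 and 296. The 31 became 13 without the block, and 66 without pair 2 or 50 without pair 3. In 2388 of the higher and 2894 of the lower genes all 3 pairs moved the same way. The calls were made on these same pairs, so this is no separate support for them. The 3 values of each group did not overlap in 1688 of the higher and 2525 of the lower genes, beside 37.3% of all genes.

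The fit without the block called 858 genes higher and 2023 lower, of which 857 and 2023 were also called with it. Without pair 1 the blocked fit called 1615 genes higher and 2350 lower. Each value is a share of its library, so a gain for some transcripts is a loss for others. With library size alone the median of all genes moved from 0.01 to 0.22 log2 and the calls to 5461 higher and 1751 lower. With ribosomal protein genes as the reference the median was 1.41 and the calls 13239 and 79. On log2(TPM + 1) the median was 0.40 and the calls 8557 and 1007. Higher and lower are therefore meant relative to the median gene.

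**Figure D1:**
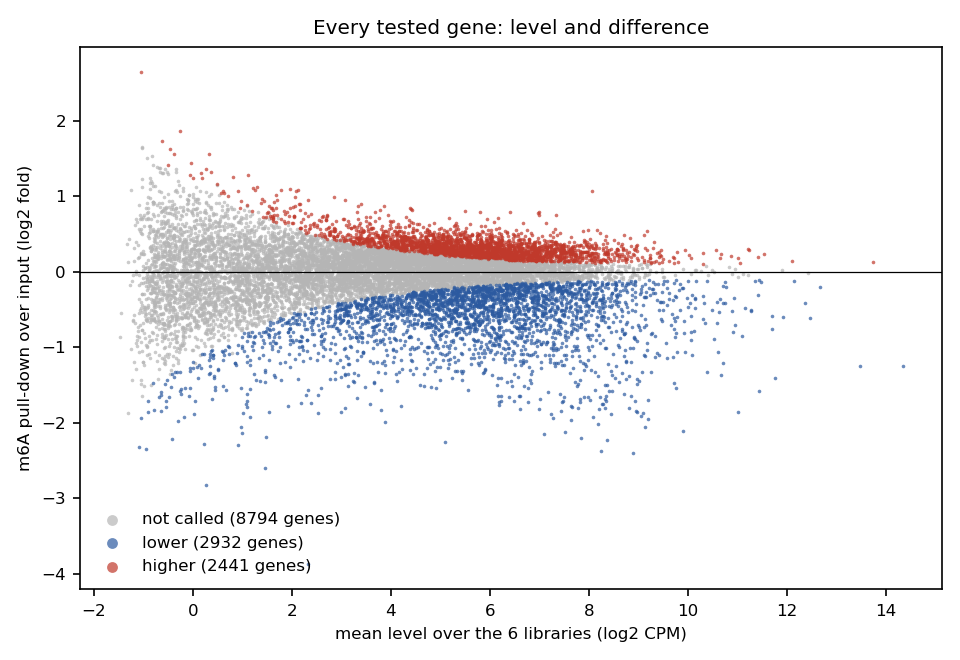
Each point is 1 of the 14167 tested genes, with its mean level in log2 CPM on the x axis and its log2 fold of m6A pull-down over input on the y axis. Genes called higher (2441, red) stay close to the line at 0 at all but the lowest levels, while genes called lower (2932, blue) reach further from it at every level.

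Jun, the AP-1 transcription factor subunit, was the gene with the largest rise among well expressed transcripts. It lies on chromosome 4 from 95049036 to 95052222 (GRCm38) and its exons cover its whole span. The inputs held 156, 179 and 170 normalized CPM and the pull-downs 477, 323 and 288. The groups did not overlap, and pull-down 1 was the highest by far. The log2 difference was 1.07 (SE 0.09, adjusted p = 2.7e-10), and 0.82 without pair 1. Its ratios in pairs 1, 2 and 3 were 1.61, 0.85 and 0.76 log2, a spread wider than the SE shows. Dusp6, the phosphatase that switches off ERK, held 92.5, 96.5 and 88.8 CPM in the inputs and 186, 172 and 129 in the pull-downs (log2 0.79, SE 0.07). For Dusp6 too every pull-down was above every input, as that choice required. Nlgn3, the synaptic adhesion protein neuroligin 3, went from 95.7, 82.6 and 97.5 to 197, 138 and 143 CPM (log2 0.78, SE 0.07). Wnt7b, a Wnt ligand, held 27.7, 54.8 and 38.0 CPM in the inputs and 62.7, 87.1 and 57.8 in the pull-downs (log2 0.80, SE 0.09). Its groups came close, and input 2 was near pull-down 3.

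The other 8 of the 12 highest genes were Lrp12 (0.84), a receptor of the LDL receptor family, Parg (0.80), which removes poly(ADP-ribose), the kinase anchor Akap12 (0.79), the secreted matrix protein gene Smoc1 (0.75), the Golgi glycoprotein gene Glg1 (0.75), the ring finger gene Rnf215 (0.72), the proprotein convertase Pcsk7 (0.71) and Nwd1 (0.71). Their exonic lengths were between 1937 and 7722 bases for the 12, with a median of 3882. In 11 of the 12 the largest ratio was that of pair 1, whose input was the shallowest library. Whether depth plays a part in this was not tested. Without pair 1 all 12 stayed called, at log2 values from 0.49 (Glg1) to 0.82 (Jun), with Smoc1 at 0.52 and Rnf215 at 0.53.

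The 12 lowest genes were chosen among called genes with a mean of at least 4 log2 CPM and no clone or pseudogene symbol. Groups without overlap were a condition here as well. Without these conditions 21 genes were called lower by more than 4-fold, and the lowest tested value was −3.88 log2. Most of the 12 encode parts of the translation apparatus or other small, abundant proteins. Rps14, a protein of the small ribosomal subunit, held 831, 754 and 813 normalized CPM in the inputs and 158, 139.5 and 158 in the pull-downs. Its log2 difference was −2.40 (SE 0.04, adjusted p = 2.5e-23). Rplp0, a stalk protein of the large subunit, fell from 1655, 1484 and 1558 to 379, 346 and 361 CPM (log2 −2.11, SE 0.04). In both genes the 3 values of a group lay within a narrow band, far from the other group. Lgals1, which encodes the sugar-binding galectin-1, was lower by a similar amount (log2 −2.37, 513 ± 56.1 to 99.2 ± 12.3 CPM, SD, n = 3), as were the peroxide-reducing enzyme Prdx1 (−2.05) and Usmg5 (−2.15), a small subunit of the ATP synthase. Rplp1 (−2.22), Rps16 (−2.20), Rpl35a (−2.12), Rps20 (−2.02), Rps12 (−1.97) and the transcript listed as Rnr1 (−1.95) completed this group, together with Mir5105. The 11 genes other than Mir5105 had exonic lengths of 341 to 1417 bases, with a median of 598. Their ratios in single pairs stayed between −2.43 and −1.79 log2.

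**Figure D2:**
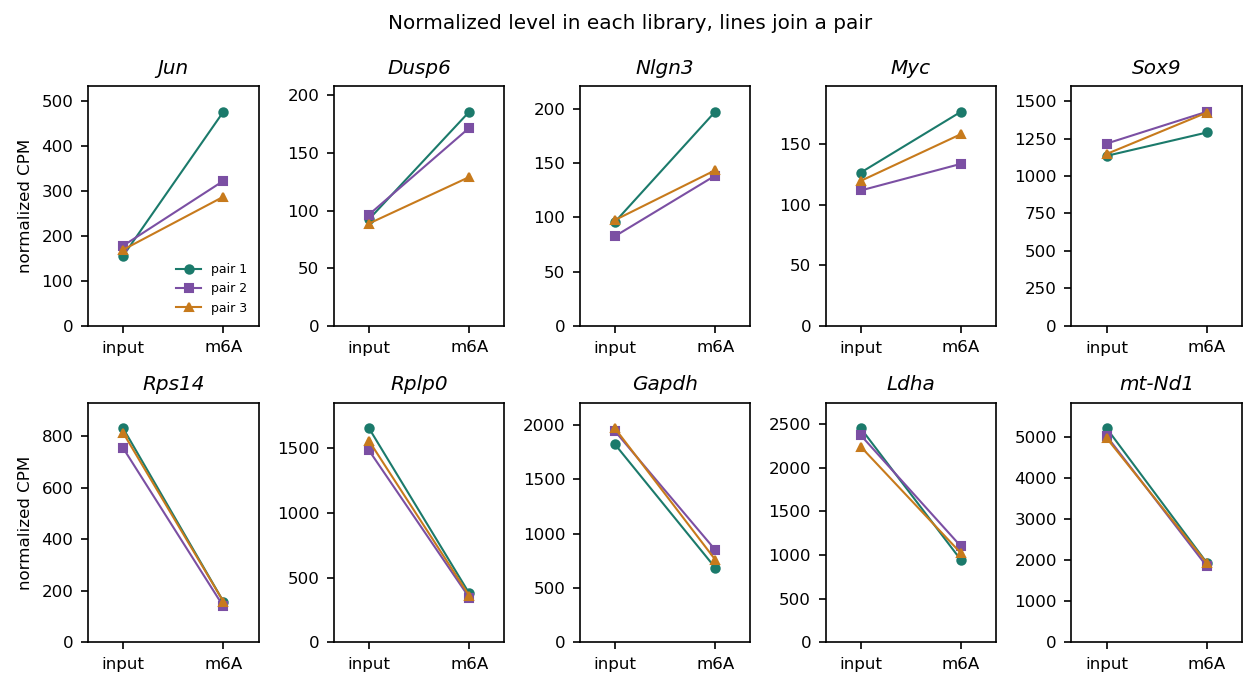
Normalized CPM (y axis, starting at 0, with a scale of its own for each gene) of 10 genes in each input and m6A pull-down library, with a line joining the 2 libraries of a pair. The 5 genes above rose in all 3 pairs, Jun most in pair 1, and the 5 genes below fell in all 3 pairs with little spread.

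Whole families of housekeeping genes lay on the lower side, beside 20.7% of all genes lower and 17.2% higher. Without the block these were 2023 and 858 of all 14167 genes. All 79 cytosolic ribosomal protein genes tested were called lower, with and without the block, 74 of them by more than 2-fold. Their median was −1.57 log2, beside 0.01 over all genes and −0.35 over genes of the same length classes. The smallest falls were those of Rpl5 (−0.53), Rpl29 (−0.64) and Rpl4 (−0.68), picked here after their values were seen. Together these transcripts made up 4.58%, 3.88% and 4.28% of the counts in inputs 1 to 3 and 1.91%, 1.73% and 1.95% in the pull-downs.

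Genes of the respiratory chain followed. All 72 nuclear oxidative phosphorylation genes tested were lower, beside 20.7% of all genes. Without the block 68 were lower, beside 2023 of all 14167 genes. Their median was −1.06 log2, beside −0.33 at the same lengths. The small cytochrome c oxidase subunits Cox7c (−1.69), Cox6c (−1.66) and Cox8a (−1.65) changed most clearly, while the values of the longer transcripts Ndufs1 (−0.17) and Sdha (−0.22) were small and passed only with the block (adjusted p = 0.214 and 0.129 without it). Mitochondrially encoded mRNAs, which are made inside the organelle, were lower in 8 of 8 tested, with a median of −1.20. mt-Nd1, a complex I subunit, held 5211, 5022 and 4972 CPM in the inputs and 1935, 1848 and 1928 in the pull-downs (log2 −1.41, SE 0.03). Its 3 pull-down values lay close together, far under the inputs. mt-Co1 fell by 1.58 and mt-Cytb by 1.25 on the log2 scale. The ribosomal RNA precursor Rn45s, of which libraries usually keep only a remnant, was also lower (−1.85).

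Of 62 mitochondrial ribosomal protein genes 41 were lower (66.1%) and 1 higher (1.61%), beside 20.7% and 17.2% of all genes. Without the block 33 were lower and 0 higher, beside 2023 and 858 of all 14167 genes. The median of −0.35 was near the −0.28 of other genes at these lengths. Mrpl30 (−1.66), Mrps14 (−1.03) and Mrpl42 (−0.98) had the smallest p-values. Of 31 proteasome subunits, which form the main protease of the cytosol, 27 were lower (87.1%) and 1 higher (24 and 0 without the block). Their median was −0.60, beside −0.29 at the same lengths. Psmb3 (−1.47), Psma2 (−1.34) and Psmb2 (−1.10) belong to the catalytic core.

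Glycolysis genes were mostly lower. Of 19 genes 12 were lower (63.2%) and 2 higher (10.5%), beside 20.7% and 17.2% of all genes. Without the block 10 were lower and 1 higher. The median was −0.45, beside −0.02 at the same lengths. Gapdh held 1824, 1945 and 1971 CPM in the inputs and 688, 852 and 762 in the pull-downs (log2 −1.32, SE 0.04). Ldha, which makes lactate, fell from 2454, 2375 and 2243 to 943, 1099 and 1022 CPM (−1.21). The pyruvate kinase gene, listed as Pkm2, was lower by a smaller amount (−0.80). Both groups were well apart in Gapdh and Ldha. The hexokinases Hk2 (0.61) and Hk1 (0.16), which open the pathway, were the 2 higher genes, Hk1 only with the block (adjusted p = 0.216 without it). Across the 19 genes the log2 difference went with log2 exonic length (Pearson r = 0.79, n = 19 genes, which share their libraries), and a positive correlation was also found in 31 proteasome (r = 0.65) and 72 oxidative phosphorylation genes (r = 0.55). It was weaker in 62 mitochondrial (r = 0.38) and 79 cytosolic ribosomal protein genes (r = 0.34).

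Zinc finger genes were the family most often higher. Of 72 C2H2 zinc finger genes, most of which encode DNA-binding repressors, 43 were higher (59.7%) and 0 lower, beside 17.2% and 20.7% of all genes. Without the block 16 were higher and 0 lower, beside 858 and 2023 of all 14167 genes. The median was 0.30 log2, beside 0.08 over genes of the same length classes, and 71 of the 72 had a positive value. Zfp146 held 96.7, 80.4 and 84.8 CPM in the inputs and 138, 107 and 119 in the pull-downs (log2 0.47, SE 0.06). Zfp26 went from 163, 152 and 158 to 209, 178 and 217 (0.35), and Zfp266 from 669, 581 and 654 to 838, 686 and 816 (0.29). The groups did not overlap in any of the 3. Within this list the difference and log2 length correlated at r = −0.03 (n = 72 genes). Without pair 1, 26 of the 72 were called higher, beside 1615 of all 14294 genes tested then.

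Of 24 protocadherins and cadherins 11 were higher (45.8%, beside 17.2% of all genes) and 0 lower. Their median was 0.18, beside 0.11 over genes of the same length classes. Without the block 1 of them was higher, as were 858 of all 14167 genes, and without pair 1 or without pair 3 the count was 5. Cdh11 (0.33) and Pcdh9 (0.20) were called with the block only (adjusted p = 0.215 and 0.213 without it), and Pcdh9 lost the call without pair 3 as well (0.0611). The one that held in both fits, Pcdhgc3, a protocadherin of the gamma cluster, rose from 471, 448 and 495 to 708, 695 and 644 CPM (log2 0.53, SE 0.05). Genes of that cluster share exons, so reads of its members may be split between symbols. Of 43 chromatin regulators 12 (27.9%) were higher and 1 lower (3 and 1 without the block, 5 and 1 without pair 1). Their median of 0.09 lay below the 0.12 of genes of the same length. The histone methyltransferase Nsd1 (0.23) was higher in both fits, the remodeller Chd6 (0.27) only with the block (adjusted p = 0.123 without it), and Eed, a subunit of the Polycomb complex that methylates histone H3, was lower (−0.46).

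Immediate early genes, which respond within minutes to growth factors, were higher in 13 and lower in 2 of 32 (4 and 1 without the block). These shares were 40.6% and 6.25%, beside 17.2% and 20.7% of all genes. Their median was 0.18, beside −0.02 at the same lengths. Besides Jun and Dusp6 they include Myc, which held 127, 112 and 119.8 CPM in the inputs and 177, 134 and 158 in the pull-downs (log2 0.38, SE 0.06). Every pull-down of Myc was above every input. Socs3, an inhibitor of cytokine receptors, was also higher in both fits (0.69), and the RNA-binding decay factor Zfp36l2 was lower (−0.85). Socs3 and Zfp36l2 were picked after their values were seen.

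TGF-beta pathway genes showed few calls. Of 23 ligands, receptors and SMADs 3 were higher and 0 lower, and without the block none was called. This share of 13.0% lies under the 17.2% of all genes, and the median of 0.16 was near the 0.09 of genes of the same length. The ligand Tgfb2 held 153, 163 and 156 CPM in the inputs and 176, 181 and 199.7 in the pull-downs (log2 0.24, SE 0.05, adjusted p = 7.8e-04, and 0.0525 without the block). Smad3, which carries the signal to the nucleus, went from 39.2, 73.7 and 46.3 to 56.0, 99.7 and 69.7 (0.51, adjusted p = 1.6e-06, and 0.211 without the block). Its rise was seen within each pair, while the groups overlapped. The corepressor Tgif1 passed narrowly (0.30, adjusted p = 0.0487) and lost the call without the block (0.515), without pair 1 (0.290) or without pair 3 (0.120).

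The receptors did not pass. Tgfbr1 was at −0.05 (SE 0.09), Tgfbr2 at 0.41 (SE 0.17, adjusted p = 0.0542), Tgfbr3 at −0.73 (SE 0.38), Acvr1b at 0.29 (SE 0.20), Acvr2a at 0.01 (SE 0.11) and Acvr2b at 0.36 (SE 0.38). The signal carriers Smad2 (0.13, SE 0.07) and Smad4 (−0.32, SE 0.14, adjusted p = 0.0768), the inhibitory Smad7 (0.84, SE 0.54, under 1 CPM in each library), the repressors Ski (−0.13, SE 0.15) and Skil (0.16, SE 0.08) and the ubiquitin ligase Smurf2 (0.10, SE 0.08) did not pass either. Tgfbr3, Acvr2b and Smad7 were the least expressed of these and had the widest errors.

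Other signalling lists had 9.52% to 33.3% of their genes higher, beside 17.2% of all genes higher and 20.7% lower. BMP pathway genes were higher in 3 (16.7%) and lower in 0 of 18, and none was called without the block or without pair 1. These were the transcriptional inhibitor Id2 (0.16, adjusted p = 0.417 without the block), the decoy receptor Bambi (0.95, 0.158 without the block) and the receptor Bmpr1b (0.16, 0.366 without the block). Notch genes were higher in 2 (9.52%) and lower in 2 of 21 (0 and 2 without the block, 0 and 3 without pair 1). The ligand Dll1 was higher (0.25) with the block only (adjusted p = 0.267 without it, 0.0767 without pair 1 and 0.202 without pair 3). Hes1, the Notch effector that keeps progenitors undifferentiated, held 18.5, 19.8 and 18.0 CPM in the inputs and 10.6, 13.0 and 14.9 in the pull-downs (log2 −0.56, SE 0.13, adjusted p = 9.5e-04). Every input was above every pull-down. The atypical Notch ligand Dner was also lower (−0.50), with adjusted p = 0.0597 without pair 3. Wnt genes were higher in 6 (21.4%) and lower in 2 of 28 (2 and 1 without the block, 3 and 1 without pair 1), with the receptor-degrading ubiquitin ligase Znrf3 (0.33) beside Wnt7b on the higher side and the adaptor Dvl3 (−0.32) on the lower. Hippo genes were higher in 6 (33.3%) and lower in 1 of 18 (3 and 1 without pair 1), none of them without the block, among them the kinase Stk4 (0.27), the scaffold Amotl2 (0.39) and the giant cadherin Fat1 (0.17, adjusted p = 0.152 without pair 1).

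Genes of stem cell identity fell on both sides. Of progenitor transcription factors 29.6% were higher and 11.1% lower, beside 17.2% and 20.7% of all genes. Among 27 progenitor transcription factors 8 were higher and 3 lower (2 and 1 without the block, 5 and 3 without pair 1 or without pair 3). Sox9, which sustains neural stem cells, held 1134, 1216 and 1147 CPM in the inputs and 1290.1, 1429 and 1423 in the pull-downs (log2 0.24, SE 0.04, adjusted p = 8.8e-06). Its groups did not overlap. Zeb1 (0.35) and Sox11 (0.29) were higher within each pair but not without the block (adjusted p = 0.120 and 0.224). Sox2 went the other way, from 39.5, 48.3 and 45.9 to 37.3, 35.1 and 39.8 CPM (−0.26, SE 0.09, adjusted p = 0.0199). Its groups overlapped, and the call ended without the block (0.106) and without pair 2 (0.322).

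Of 29 quiescence and radial glia markers 8 were higher and 12 lower (1 and 6 without the block). These shares were 27.6% and 41.4%, beside 17.2% and 20.7% of all genes. For oligodendrocyte lineage genes they were 29.4% and 0%, and for young neuron genes 26.3% and 10.5%. Fabp7 fell from 4182, 4378 and 4076 to 2378, 2589 and 2478 CPM (log2 −0.76, SE 0.03). Dbi, which encodes a lipid-binding peptide, fell from 2136, 2667 and 2262 to 819, 977 and 943 (−1.36), and the tetraspanin gene Cd9 was lower as well (−1.07). The groups of these genes were far apart. Fabp7 and Dbi have exonic lengths of 762 and 745 bases, beside a median of 2782 in the list. Oligodendrocyte lineage genes were higher in 5 and lower in 0 of 17 (1 and 0 without the block, 3 and 1 without pair 1). Of these Lhfpl3 (0.24) held in both fits, while Pdgfra (0.20) and Gpr17 (0.29) did not (adjusted p = 0.146 and 0.540 without the block). Young neuron genes were higher in 5 and lower in 2 of 19, with the membrane scaffold Ank3 (0.29) called in both fits and Ank2 (0.26) with the block only (adjusted p = 0.0969 without it). Among the rare cell types, 1 of 6 fibroblast genes and 0 of 4 endothelial genes tested were called. Of the endothelial genes, Kdr was at 0.64 (SE 0.37), Flt1 at 0.41 (SE 0.57) and Mcam at 0.21 (SE 0.16), and Kdr passed without pair 3 (1.18, adjusted p = 0.0481). Of the fibroblast genes, Ogn was at −0.45 (SE 0.27) and Postn at 0.77 (SE 0.66). The fibroblast gene called was Foxc1, which was lower (−0.99, adjusted p = 0.0499, and 0.361 without the block).

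Cell cycle genes divided. Beside 17.2% of all genes higher and 20.7% lower, the shares were 28.9% and 36.8% for mitosis genes. They were 12.2% and 39.0% for replication genes and 12.5% and 31.25% for regulators of cell cycle entry. Of 38 mitosis genes 11 were higher and 14 lower (1 and 9 without the block, 7 and 10 without pair 1), with a median of 0.03, as in genes of the same length classes. The centromeric histone gene Cenpa held 102, 76.7 and 87.3 CPM in the inputs and 46.5, 38.1 and 45.4 in the pull-downs (log2 −1.03, SE 0.07). Ube2c, which marks mitotic proteins for destruction, went from 102, 71.4 and 91.4 to 46.9, 40.3 and 46.3 (−0.97), and the checkpoint gene Bub3 was also lower (−0.87). The groups of Cenpa and Ube2c did not overlap. Of 41 replication genes 5 were higher and 16 lower (2 and 6 without the block). Rpa3 (−1.10) and Rfc4 (−0.75), small subunits of replication complexes, were lower. Fen1, the nuclease that trims Okazaki fragments, was higher, from 91.5, 68.0 and 76.6 to 154, 103 and 117 CPM (0.65, SE 0.06). Of 16 regulators of cell cycle entry 2 were higher and 5 lower, with the kinase Cdk4 (431 to 215 CPM on average), Ccnd3 (−0.85) and the inhibitor Cdkn1a (−0.32) lower in both fits.

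The m6A machinery itself showed small differences. Shares higher and lower were 25% and 0% for writers and 16.7% and 25% for erasers and readers. For all genes they were 17.2% and 20.7%. Of 8 writer genes 2 were higher, Rbm15 (0.34) and Zc3h13 (0.16), which recruit or anchor the complex. Neither held without the block (adjusted p = 0.0527 and 0.178), without pair 1 (0.0987 and 0.103) or without pair 2 (0.120 and 0.0536), nor did Zc3h13 without pair 3 (0.255). The catalytic Mettl3 (−0.07, SE 0.08) and its partner Mettl14 (0.10, SE 0.09) did not pass, nor did Cbll1 (−0.09, SE 0.06). Of 12 erasers and readers 2 were higher and 3 lower (1 and 1 without the block). Ythdf2 held 166, 161 and 166 CPM in the inputs and 203, 189 and 202 in the pull-downs (log2 0.27, SE 0.05, adjusted p = 1.1e-04). The 3 values of each group lay close together and the groups did not overlap. Hnrnpc, an RNA-binding protein proposed to read structural effects of the mark, fell from 554, 485 and 506 to 305, 293 and 299 CPM (−0.78). The reader and helicase gene Ythdc2 was lower with the block only (−0.51, adjusted p = 0.0643 without it, 0.124 without pair 1 and 0.165 without pair 2). Alkbh5 was lower (−0.27, adjusted p = 0.0200), a call lost without the block (0.0631), without pair 2 (0.135) or without pair 3 (0.100). Fto did not pass (−0.12, SE 0.05, adjusted p = 0.0684).

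Decay and splicing factors were mixed. Beside 17.2% of all genes higher and 20.7% lower, the shares were 13.3% and 24.4% for decay genes and 15.4% and 34.6% for splicing factors. They were 21.7% and 30.4% for cholesterol synthesis genes and 15.4% and 11.5% for collagen and matrix genes. Of 45 decay genes 6 were higher and 11 lower (1 and 7 without the block, 3 and 9 without pair 2). The decapping activator Ddx6 was higher (0.35), and Lsm4 (−0.64), of the ring that binds deadenylated ends, and the exosome subunit Exosc9 (−0.56) were lower. Of 26 SR and other splicing factors 4 were higher and 9 lower (0 and 6 without the block, 2 and 10 without pair 1), with Srsf3 (−0.78), Srsf7 (−0.52) and U2af1 (−0.49) the clearest. Of 23 cholesterol synthesis genes 5 were higher and 7 lower (0 and 4 without the block, 3 and 5 without pair 1, 2 and 6 without pair 3), and Fdps, which makes farnesyl diphosphate, was the lowest of them (−0.66), with Idi1 (−0.36) and Nsdhl (−0.28) lower in both fits. Of 26 collagen and matrix genes 4 were higher and 3 lower and none was called without the block. The brain proteoglycans Vcan (0.25), Bcan (0.21) and Ncan (0.19) were among the 4 higher genes (adjusted p = 0.146, 0.141 and 0.390 without the block).

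Long noncoding RNAs did not move as one. Shares higher and lower in the list were 15.8% and 36.8%, beside 17.2% and 20.7% of all genes. Of 19 tested 3 were higher and 7 lower (1 and 6 without the block). The host transcripts of small nucleolar RNAs were the lowest, with Snhg8 from 49.5, 42.4 and 45.8 to 16.8, 14.2 and 16.3 CPM (log2 −1.54, SE 0.09) and Snhg6 at −1.50. Gas5, another such host, fell from 389.6, 363 and 347 to 269, 257 and 263 (−0.48). The nuclear RNA Malat1 held 12733, 13616 and 13137 CPM in the inputs and 14196, 14864 and 14117 in the pull-downs (0.13, SE 0.03, adjusted p = 3.9e-04, and 0.106 without the block). Among common reference genes, Actb was lower (−0.41, SE 0.03) beside the larger fall of Gapdh.

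**Figure D3:**
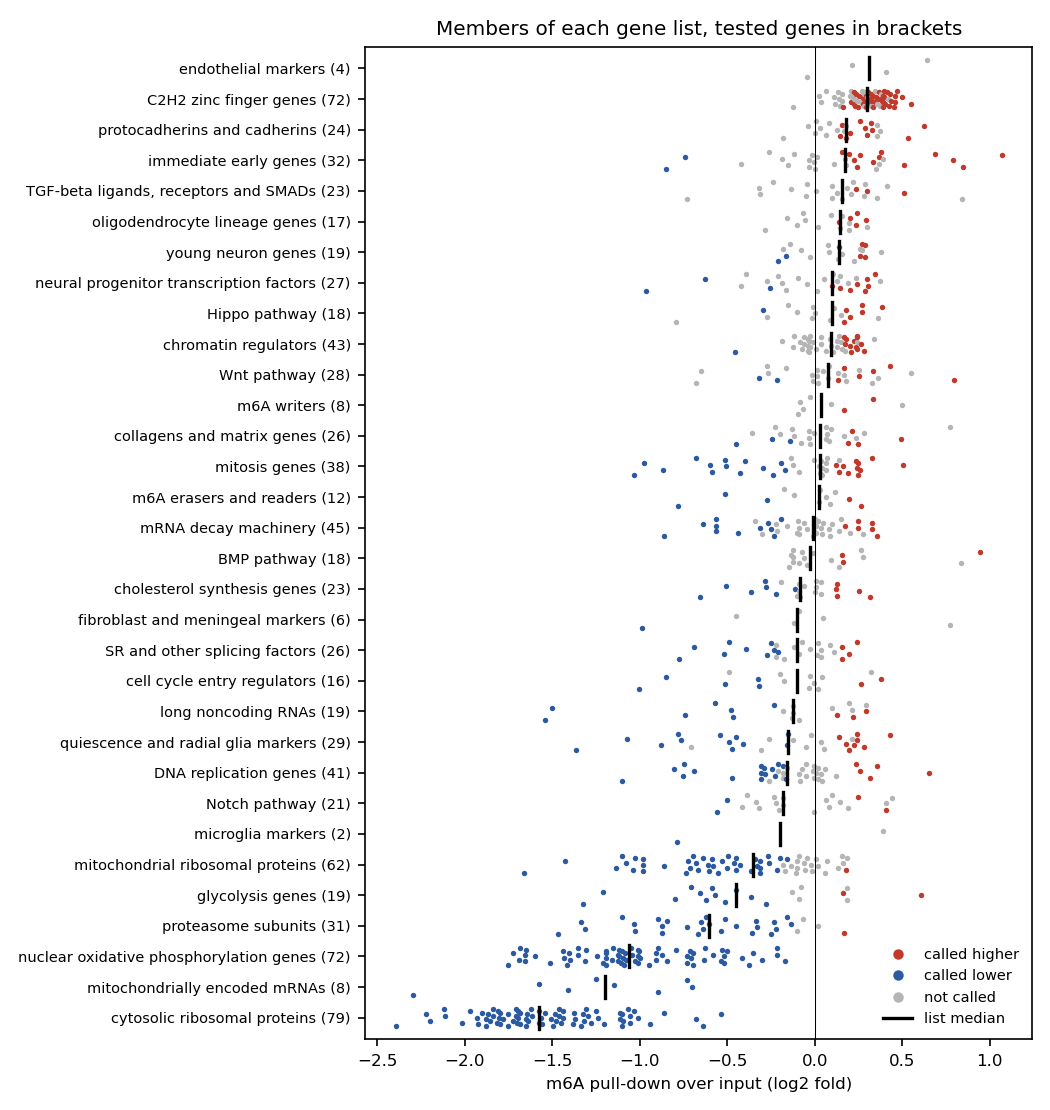
Each point is 1 tested member of a gene list, placed by its log2 fold of m6A pull-down over input (x axis) and coloured by its call, and each black bar is the list's median. Lists are ordered by median, from −1.57 for the cytosolic ribosomal protein genes at the bottom to 0.30 for the zinc finger genes and 0.31 for 4 endothelial genes, none of them called, at the top.

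Exonic length was the feature that ran with the difference most widely. Length here is the number of exonic bases behind the deposited TPM. Across 14167 genes, which share the 6 libraries, the log2 difference correlated with log2 length (Pearson r = 0.42, Spearman rho = 0.38), and hardly with the mean level (r = −0.07). With the genes in 5 equal classes of length, the median from the shortest to the longest class was −0.38, −0.07, 0.04, 0.11 and 0.13 log2. The share called higher was 3.28% in the shortest class and 28.0% in the longest, and the share called lower 46.4% and 5.82%. Of 1185 genes under 1000 bases, 13 were higher and 648 lower. The shares called also varied with level within a length class, and in the shortest class so did the difference. Its medians there over 5 classes of level, from lowest to highest, were −0.22, −0.26, −0.32, −0.48 and −0.75. In the shortest class, 412 of the 467 genes in the highest of 5 classes of level were lower (88.2%), with a median of −0.75. In the longest class, 342 of 681 such genes were higher (50.2%) and 80 lower (11.7%), with a median of 0.14 that was close to the 0.13 of the whole class. At the lowest level of that class, 1.82% were higher and 1.52% lower. The median length was 3967 bases for genes called higher, 1742 for those called lower and 3001 for the rest.

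Genes whose exons cover their whole genomic span, as in single-exon genes, were set apart within length. There were 422 of them, beside 13279 genes with introns. In the 4 shorter classes their medians were −0.14, 0.23, 0.22 and 0.25 log2, beside −0.40, −0.07, 0.04 and 0.11 for genes with introns. In the longest class the order was the other way, at 0.09 for 39 genes beside 0.13. Over all lengths, 88 of the 422 were higher (20.9%) and 38 lower, beside 17.6% and 21.1% of genes with introns. After Jun, the largest rises of this class among well expressed genes were Pcdhb7 (0.68) and Pcdhb18 (0.56), protocadherins of the beta cluster, and Imp3 (0.58), a nucleolar protein gene of only 899 bases. This split was no test and was chosen after the data were seen.

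**Figure D4:**
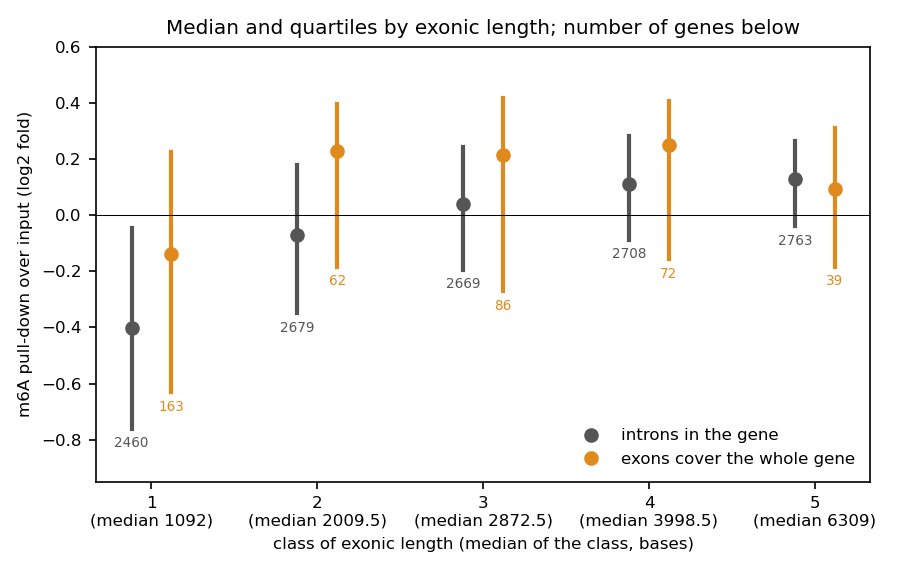
Median (point) and quartiles (line) of the log2 fold of m6A pull-down over input (y axis) in each of 5 classes of exonic length (x axis), for genes with introns (grey) and genes whose exons cover the whole gene (orange), with the number of genes under each line. The grey medians climb from −0.40 to 0.13, and the orange ones lie above them in the 4 shorter classes.

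The YTHDF2 pull-down, made from other libraries of wild-type cells, gave a readout of its own for the same genes. For these libraries the sample titles and descriptions name YTHDF2 and Input the other way round; the descriptions, which match the count columns, were followed. Of 14255 genes, 30.7% were higher and 17.5% lower in YTHDF2 over input, and 14.3% higher and 0.33% lower over IgG. Among the 2436 genes higher with m6A that could be tested, 59.2% were higher over input and 4.31% lower. Among 2901 genes lower with m6A, 5.72% were higher over input and 52.1% lower. Over IgG, 40.6% of the first and 0.758% of the second were higher. Lower over IgG were 0.448% of the second, beside 0.33% of all genes. By the descriptions, input over IgG was higher in 37.2% of the second, beside 17.7% of genes tested in both experiments. Median log2 values over input were 0.75 and −0.62, and over IgG 0.50 and −0.25. With the groups named as in the titles, the share of m6A-higher genes that were higher in YTHDF2 was 4.31% over input and 17.2% over IgG, where 2422 of all 14255 genes were. Both contrasts share the YTHDF2 libraries, and without replicate 3 of this experiment 25.4% of m6A-higher genes were higher over IgG, beside 7.48% of all genes.

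The same order was found within length classes, where level was not held equal. Genes not called with m6A had a median input level of 8.60 CPM, beside 46.1 for genes higher and 65.4 for genes lower. The part of level in these shares was not tested. In the shortest class, 65.6% of 93 genes higher with m6A were higher over input, beside 28.3% of 1313 genes not called, and in the longest class 65.4% of 794 beside 43.7% of 1804. Over IgG these shares were 57.0% beside 12.7% and 31.7% beside 9.65%. With the groups as in the titles, the shares over input were 5.38% beside 11.7% in the shortest class and 3.15% beside 5.54% in the longest, and over IgG 32.3% beside 13.9% and 9.45% beside 5.54%. Across 13637 genes the m6A difference correlated with that of YTHDF2 over input (Pearson r = 0.47) and over IgG (r = 0.38). Log2 length correlated with these at 0.25 and 0.12.

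Zinc finger genes were mostly higher here, with 61 of 72 higher over input and 50 of 72 over IgG and none lower. With the groups as in the titles, none of the 72 was higher and 61 were lower over input, and 5 were higher and 18 lower over IgG. By the titles, protocadherins and cadherins were higher in 3 and lower in 2 of 24 over IgG, TGF-beta genes in 1 and 4 of 23, and chromatin regulators in 0 and 30 of 43. The values over input that follow, by the descriptions, all change sign under the titles. Zfp26 stood at 2.57 log2 over input and 1.30 over IgG. Protocadherins and cadherins were higher in 14 and 8 of 24, beside 30.7% of all genes over input and 14.3% over IgG. For the TGF-beta list the counts were 10 (43.5%) and 4 (17.4%) of 23. Tgfb2 was at 1.03 and 1.34 log2 and Tgif1 at 1.51 and 0.88. Smad3 was at 1.76 over input and called higher over IgG as well. Among cytosolic ribosomal protein genes 7 were higher and 35 lower over input, and 0 of 79 were called over IgG. By the descriptions, input over IgG was higher in 26 and lower in 10 of these 79. The counts were 39 and 4 for 72 oxidative phosphorylation genes, beside 17.7% and 20.3% of genes tested in both experiments. Chromatin regulators differed between the controls, with 29 of 43 higher over input and 0 over IgG. Of the 12 genes with the largest m6A rise, 2, Lrp12 (1.33) and Nlgn3 (1.78), were higher over input and 3 over IgG. The shares were 30.7% and 14.3% of all genes and 59.2% and 40.6% of m6A-higher genes. Jun (0.97, SE 0.43, adjusted p = 0.0815) and Dusp6 (0.20, SE 0.51) did not pass over input.

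Levels after 4 h of actinomycin D, which stops transcription, were the second independent readout. Of 13112 genes 29.4% were higher and 33.2% lower at 4 h than at 0 h, relative to the median gene. Among 2404 genes higher with m6A, 54.8% were lower at 4 h and 15.2% higher, with a median of −0.60 log2. Among 2903 genes lower with m6A, 13.2% were lower and 65.4% higher, with a median of 0.57. Within length classes the order was alike: in the shortest class 42.4% of 92 m6A-higher genes were lower at 4 h, beside 19.5% of 1098 genes not called and 7.84% of 1301 lower with m6A. In the longest class the shares were 59.0%, 47.4% and 34.5%. Level, which in the m6A inputs was lower for genes not called, was not held equal here either. Across 12828 genes the m6A difference correlated with the log2 fold of 4 h over 0 h at −0.32, and log2 length with that fold at −0.25. At 2 h, where 20.6% of all genes were higher and 25.7% lower than at 0 h, 43.5% of the m6A-higher genes were lower and 50.9% of the m6A-lower genes higher. With library size alone the shares among m6A-higher and all genes were 66.5% and 43.0%.

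Of 71 zinc finger genes tested 66 were lower at 4 h and 0 higher (median −2.07 log2). Of 43 chromatin regulators 33 were lower and 3 higher, beside 33.2% and 29.4% of all genes. Of 79 ribosomal protein genes 78 were higher and of 72 oxidative phosphorylation genes 72, with medians of 0.75 and 0.90. Mitochondrially encoded mRNAs, by the descriptions low in both pull-downs over input, did not share this, with 3 higher and 4 lower of 8. In YTHDF2 over IgG 0 of 7 were called, and input over IgG was higher in 7 of 7 (median 1.75 log2). Among the 12 genes highest with m6A 6 were lower and 5 higher at 4 h. Dusp6 (−4.30), Jun (−2.35) and Lrp12 (−1.79) were lost, while Wnt7b (0.84) and Nlgn3 (0.62) rose relative to the median gene. Hes1 (−3.83) and Sox2 (−3.31), both lower in the m6A pull-down, were lost as well.

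In all, 12631 genes were tested in all of these comparisons. Of the 2401 genes higher with m6A among them, 808 (33.7%) were also higher in YTHDF2 over both input and IgG, beside 11.9% of all 12631. With the groups as in the titles, the overlap was 67 genes (2.79%), beside 12.9% of all 12631, and 1044 of 2885 m6A-lower genes (36.2%) were higher in YTHDF2 over both. By the descriptions, the 808 were 53.8% of the 1501 genes higher in YTHDF2 over both controls, and 0.400% of those 1501 were lower with m6A. Of the 808, 539 were lower at 4 h (66.7%; 19.4% of the 67 by title), beside 48.9% of the m6A-higher genes outside this overlap. Among genes not called with m6A, which had lower input levels, the corresponding shares were 59.1% of 687 and 32.4%.

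**Figure D5:**
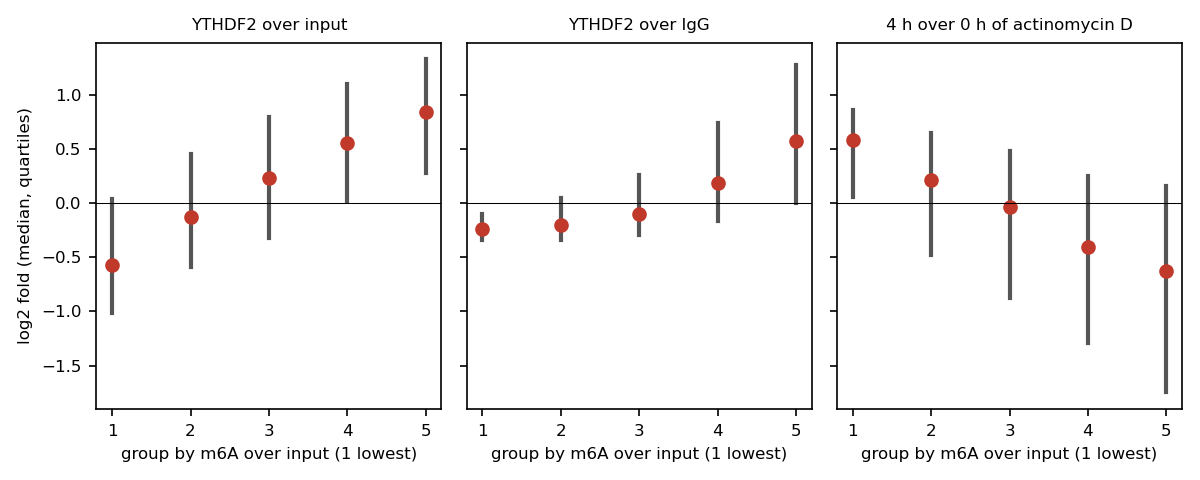
With the groups as in the descriptions, median (point) and quartiles (line) of the log2 fold of YTHDF2 over input, YTHDF2 over IgG and 4 h over 0 h of actinomycin D (y axis) for genes in 5 equal groups by their m6A fold over input (x axis, 1 the lowest). The medians climb from −0.57 to 0.84 for YTHDF2 over input and from −0.24 to 0.57 over IgG, and fall from 0.58 to −0.63 at 4 h.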

How the data were processed

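The submitters' processing notes list STAR 2.5.2a, Trimmomatic 0.32 and bcl2fastq 2.17.1.14, with GRCm38 as the build. What counted the reads, and whether RNA was fragmented before the pull-down, is not given in the sources used here. Per the labels, libraries followed a modified SMART-seq3 protocol. The authors deposited a raw count and a TPM value per gene and library. The deposited count tables entered all models, and the deposited TPM values entered one alternative and gave exonic length as count over TPM. Its unit was set in bases from the value that recurs in 404 genes whose length equals their RefSeq span (GRCm38.p6, 13748 of 14167 symbols matched). This scale, and the class of genes covered by exons to within 1%, were chosen after seeing the data. In all, 36 columns of the tables were not used.

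Counts were fitted with edgeR 4.0.16 (R 4.3.3): TMM scaling, filterByExpr, quasi-likelihood tests, two-sided, Benjamini-Hochberg threshold 0.05. The m6A fit had the replicate number as a block (2 residual degrees of freedom, 4 without). Deviations from the group means correlated within pairs 1, 2 and 3 at 0.34, 0.43 and 0.071 over all genes and at 0.71, 0.75 and 0.28 at a mean of at least 4 log2 CPM, and between numbers at −0.38 to 0.040. All 6 libraries correlated best with their own number, but pair 3 fell under 0.1 over all genes, so values without the block stand beside the counts. The YTHDF2 libraries (8419106 to 23097887 counts) and wild-type RNA-seq libraries (11100782 to 20124800) were fitted on their own, each with 6 residual degrees of freedom and no block. Normalized CPM are scaled to TMM-adjusted totals. Fits were tested on simulated data.

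The 32 lists (985 genes, 9 to 79 each) and the named genes were chosen with earlier results of these data known. Named were the 12 highest and 12 lowest called genes with a mean of at least 4 log2 CPM, groups without overlap and a symbol that marks no clone or pseudogene, the 3 genes of smallest p in every list, and a fixed set of 26. Others are said to be picked after their values were seen, as are Ndufs1, Sdha, Hk1 and Hk2 and the exon-covered genes. Mir5105 is named only, and the result of the microglia markers is not reported here. No transcript sequence was used, so sites of the mark were not analysed here. Alternatives were DESeq2 1.42.0, other scalings and filters, limma 3.58.1 on log2(TPM + 1) and leaving out libraries.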

Additional observations from a re-analysis of the deposited data

How the results depend on the processing

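Without the replicate block, 858 genes were higher with m6A and the genes higher by more than 2-fold were 13 (DESeq2 gave 14, and a filter of at least 50 counts 9). The numbers pair the libraries by the labels and by their deviations, which were weak in pair 3. Scaling to library size or ribosomal proteins moved all counts, as did limma, which changes unit and model too, while RLE scaling gave 2720 and 2824. The counts of higher and of lower genes were 5461 and 1751 with library size alone, 13239 and 79 with ribosomal protein genes as the reference, and 8557 and 1007 with limma on log2(TPM + 1). In the same order, the genes higher by more than 2-fold were 130, 11393 and 93 and the genes lower by more than 2-fold 264, 3 and 114. Without 1 pair, 1615 to 2104 genes were higher and 2350 to 2665 lower, 27 to 66 and 426 to 506 of them past 2-fold. Without the block, leaving out input 1, 2 or 3 gave 557, 682 and 343 higher and 1730, 1838 and 1510 lower genes, and leaving out m6A library 1, 2 or 3 gave 370, 841 and 347 higher and 1599, 1934 and 1477 lower. The genes higher by more than 2-fold were then 11, 40 and 7 and 10, 13 and 5. The share of m6A-higher genes called higher in YTHDF2 ranged from 40.5% to 61.6% over input and from 25.4% to 39.9% over IgG with 1 replicate left out, and was 4.31% and 17.2% with the groups as in the titles. The share lower at 4 h was 50.3% to 52.4% with 1 replicate left out. Of the 131 named genes, 28 lost their call without the block, and 9, 6 and 10 without pair 1, 2 or 3. Beyond the fewer libraries in each fit, the cause was not tested.

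Single-gene values under other scalings are relative to the median of all genes. Signs turned in Gpr17, at −0.023 without m6A library 2 and the block, and otherwise in genes that were not called. On log2(TPM + 1) Postn was at −0.13, Flt1 at −0.25, Tgfbr1 at 0.018, Smad7 at −0.10 and Mettl3 at 0.019. With 1 pair left out, Mettl3 ranged from −0.13 to 0.023, Acvr1b from −0.037 to 0.62, Acvr2a from −0.039 to 0.042 and Acvr2b from −0.17 to 0.75. Without the block, Flt1 was at −0.18 without input 1 and −0.33 without m6A library 2, Acvr2a at −0.025 without input 3 and −0.0034 without m6A library 1, and Ski at 0.034 without input 2.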

Other observations

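Other gene classes of RefSeq were compared with the 17.2% of all genes higher and 20.7% lower. Of 64 genes that RefSeq lists as pseudogenes 30 were lower (46.9%) and 0 higher, with a median of −0.89 log2 and a median exonic length of 587 bases. Reads of such copies may come from the parent genes. Of 37 snoRNA genes 3 were lower (8.11%) and 0 higher, with a median of −0.27 beside −0.38 in the shortest of 5 length classes. Among 644 long noncoding RNA genes 35 were higher and 60 lower (median −0.06), beside 2388 and 2746 of 12883 protein-coding genes (median 0.02).

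Immediate early genes were nearly all lost after actinomycin D, with 24 of 26 tested lower (92.3%) and 0 higher at 4 h (median −3.52 log2). Of all genes 33.2% were lower and 29.4% higher. Whether this loss goes with the 13 of 32 higher with m6A was not tested. Quiescence and radial glia markers went the other way, with 22 of 29 higher (75.9%) and 2 lower (6.90%) at 4 h.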
